A study of Homo sapiens with 4 samples.

Results

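The AP-1 and EGR immediate early factors are described here from 10 genes: FOS, FOSB, FOSL1, FOSL2, JUN, JUNB, JUND, EGR1, EGR2 and EGR3. They were chosen by gene symbol, and each matched a single row among the 58735 genes of the deposited table. Expression was measured by RNA sequencing in H1299 cells, an established line from a human lung carcinoma of the non-small cell type. The series compares 2 libraries of wild-type H1299 cells (genotype WT) with 2 libraries of H1299 cells in which the gene TTC28 had been targeted with CRISPR/Cas9 (genotype TTC28 Knockout). Both groups are labelled untreated and were grown in serum-containing medium, and the labels name no stimulus that separates them. A difference in handling before harvest was not tested. The labels do not say whether the knockout cells are a single clone, nor whether replicates came from separate cultures, and p-values then measure only the spread between these libraries.

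FOS and JUN proteins carry a basic leucine zipper and form the dimers called AP-1, which bind short palindromic DNA sites. JUN proteins pair with each other or with FOS proteins, while FOS proteins need a JUN partner. EGR proteins bind GC-rich sites through zinc fingers. FOS, JUN, JUNB, FOSB and the EGR genes are textbook immediate early genes, transcribed soon after growth factors activate ERK and related kinases, whereas JUND is expressed more steadily and FOSL1 accumulates under sustained ERK signalling in many carcinomas.

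The libraries held 25808423 and 27043491 counts in wild-type replicates 1 and 2 and 28885443 and 25120500 in knockout replicates 1 and 2. Mitochondrially encoded genes took 5.87% to 6.07% of the counts in wild-type and 8.61% to 10.16% in knockout libraries. Levels are given as FPKM, the fragments counted for a gene divided by its length and by the size of the library. TTC28 (ENSG00000100154) was at 4.88 and 5.44 FPKM in the wild-type libraries and 2.96 and 2.99 FPKM in the knockout libraries, and it shares 933 exonic bases with the antisense gene TTC28-AS1. Of the 6 epithelial markers examined, KRT8 and KRT18 were at 1 FPKM or more in all 4 libraries. KRT7 was at 1.94 and 2.02 FPKM in wild-type and 0.745 and 0.570 FPKM in knockout libraries (2.98-fold lower), while KRT8 was 1.68-fold higher in the knockout. EPCAM reached at most 0.214, KRT19 at most 0.0629 and CDH1 at most 0.00594 FPKM. The mesenchymal genes VIM and CDH2 summed to 324 and 309 FPKM in wild-type and 376 and 364 FPKM in knockout libraries. Summed lung lineage, leukocyte, endothelial and fibroblast markers stayed below 1 FPKM in every library.

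Of the 10 genes, 8 had at least 1 FPKM in at least 2 libraries and were tested, and EGR2 and EGR3 did not. In the knockout 3 rose (EGR1, JUND and FOS), 2 fell (FOSL1 and FOSL2), and JUN, JUNB and FOSB did not pass. A call is a Benjamini-Hochberg adjusted p under 0.05 in edgeR's quasi-likelihood test over all 13079 tested genes, written below as edgeR adjusted p. Among all tested genes 50.3% were called, 25.1% as higher and 25.2% as lower, so that 5 calls among 8 genes are near the background and the account below rests on the single genes. The share of all tested genes called was 35% with a filter of 0.1 FPKM and 58% with a filter of 5 FPKM. Shares called in the lists below are not matched for level. For 5 of the 8 genes the groups' FPKM values were fully apart, as they were for 75.5% of all tested genes. The median log2 fold change of the 8 was 0.04, and that of all tested genes was -7.07e-05.

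**Figure D1:**
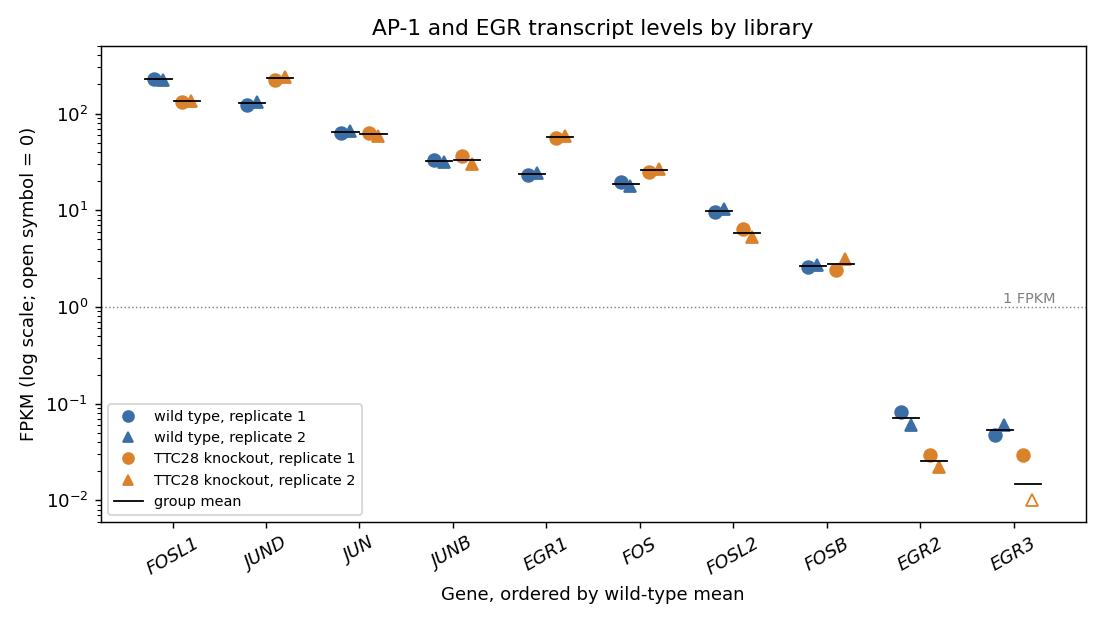
FPKM of the 10 genes in each library on a log axis, with genes ordered by their wild-type mean, circles for replicate 1, triangles for replicate 2 and a line for each group mean. FOSL1 is the highest gene in wild type and JUND in the knockout, and EGR2 and EGR3 lie far below the dotted line at 1 FPKM.

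The order of the levels, compared per length, differed between the groups at the top. In wild type FOSL1 was highest at 225.6 ± 5.65 FPKM (SD, n = 2), followed by JUND at 128 ± 6.04, JUN at 63.9 ± 2.28, JUNB at 32.4 ± 0.700, EGR1 at 23.7 ± 0.565, FOS at 18.7 ± 1.52, FOSL2 at 9.86 ± 0.524 and FOSB at 2.68 ± 0.0838 FPKM. In the knockout JUND was highest at 233 ± 11.8 FPKM (SD, n = 2), and then came FOSL1 at 133 ± 1.81, JUN at 61.0 ± 2.90 and EGR1 at 56.9 ± 2.19 FPKM. JUNB, FOS, FOSL2 and FOSB followed in their wild-type order. Only EGR2 and EGR3, the lowest pair, had overlapping values as neighbours in either order. JUN and EGR1 came close in the knockout, where the lower JUN library was at 58.9 FPKM and the higher EGR1 library at 58.5 FPKM. In the knockout 99.1% of tested genes had a lower mean level than JUND. Levels rest on the gene length in the table, which covers every annotated exon, so that a gene whose longer transcripts are not made appears lower than it is.

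EGR1 showed the largest change of the 8 tested genes. EGR1 (ENSG00000120738, hg38 chromosome 5, 138465490 to 138469315, plus strand) encodes the zinc finger activator that serum and growth factors induce through ERK. Its level was 23.3 and 24.1 FPKM in wild-type replicates 1 and 2 and 55.4 and 58.5 FPKM in knockout replicates 1 and 2. Both knockout libraries were more than 2-fold above both wild-type libraries, and the counts behind them were 1913, 2057, 4842 and 4481. EGR1 rose by a log2 fold change of 1.27 (SE 0.0631), or 2.41-fold, higher in 2 of 2 knockout libraries (edgeR adjusted p = 9.56e-09). In bulk samples a level cannot tell fewer expressing cells from less RNA per cell. A change of larger size was found for 3.35% of all tested genes, and 5.21% were called and changed at least 2-fold in either direction. Among the 401 tested genes that the table assigns to the C2H2 zinc finger family, EGR1 ranked 13th by level in wild type and 2nd in the knockout.

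The promoters of EGR1 and JUND are shown because these genes had the largest rises. Each line gives the 200 bases before the transcription start in RefSeq (build GRCh38.p14), on the strand of the gene and 5′ to 3′, with motif matches in capitals.
EGR1 (chr5:138465279-138465478, plus strand): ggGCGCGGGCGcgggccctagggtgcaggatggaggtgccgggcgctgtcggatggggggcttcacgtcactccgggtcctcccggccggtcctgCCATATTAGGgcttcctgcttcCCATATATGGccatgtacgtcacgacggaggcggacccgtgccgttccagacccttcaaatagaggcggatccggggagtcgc
JUND (chr19:18281623-18281822, minus strand): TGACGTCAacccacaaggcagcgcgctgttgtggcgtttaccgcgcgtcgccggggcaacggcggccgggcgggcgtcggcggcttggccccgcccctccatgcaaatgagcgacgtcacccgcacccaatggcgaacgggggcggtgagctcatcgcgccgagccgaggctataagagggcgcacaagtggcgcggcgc
In EGR1 the capitals are, from left to right, a match to the EGR motif GCGNGGGCG and 2 matches to the CArG box, the site of serum response factor, at 105 to 96 and 83 to 74 bases before the start. In JUND they are a match to TGACGTCA, the cAMP response element that ATF and CREB proteins and JUN-ATF dimers bind, at 200 to 193 bases before the start. The motifs searched on both strands of the 250 bases before the start were the CArG box, TGACGTCA, the AP-1 site TGACTCA, GCGNGGGCG and the ETS motif CCGGAAG. Of the 27305 promoters in RefSeq, 1.14% held a CArG box, 1.77% TGACGTCA, 4.16% TGACTCA, 8.25% GCGNGGGCG and 8.82% CCGGAAG. The table matched 8 of the 10 genes, without FOSL1 and EGR3. The windows of FOS, FOSB, FOSL2, JUN and JUNB held no match to these letters, and 1 of the 3 EGR2 windows held a CArG box. The JUN, FOSL2 and EGR2 windows lay inside the genes as annotated, and those of FOS and FOSB overlapped the annotated start. Sites more than 250 bases before the start were not searched, so the lack of a match says nothing about them. A match is a description of sequence, and no binding was measured.

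EGR2 and EGR3, the close relatives of EGR1 known from nerve and lymphocyte biology, were near the limit of detection. EGR2 (ENSG00000122877, chromosome 10) had 8 and 6 counts in wild-type and 3 and 2 in knockout libraries. EGR3 (ENSG00000179388, chromosome 8) had 6 and 8 counts in wild-type and 4 and 0 in knockout libraries, where a count of 0 allows up to 3. All wild-type counts lay above all knockout counts for both genes, in the opposite direction to EGR1. Scaled to library totals, the knockout-over-wild-type ratio was 0.35 for EGR2 (95% exact Clopper-Pearson interval 0.099 to 1.03) and 0.28 for EGR3 (0.067 to 0.89). These intervals cover counting error only. With no filter on low values neither gene passed, with edgeR adjusted p = 0.357 for EGR2 and edgeR adjusted p = 0.252 for EGR3. EGR3 shares 164 exonic bases (3.38%) with AC055854.1 on the opposite strand. That gene had 3 and 2 counts in wild-type and 0 and 0 in knockout libraries, and an effect of shared reads was not tested. EGR1 made up at least 99.4% of the summed EGR family FPKM in every library.

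The FOS family moved in both directions. FOSL1 (ENSG00000175592, chromosome 11, 65892049 to 65900573, minus strand), which encodes FRA1, had 229.6 and 222 FPKM in the wild-type libraries and 132 and 134.5 FPKM in the knockout libraries. All knockout values were well below all wild-type values, on counts of 11353, 11392, 6939 and 6199. FOSL1 fell by 0.76 on the log2 scale (SE 0.0619), a 1.69-fold decrease, lower in 2 of 2 knockout libraries (edgeR adjusted p = 7.30e-07). FOSL2 (ENSG00000075426, chromosome 2, 28392448 to 28417312, plus strand), which encodes FRA2, was at 9.49 and 10.2 FPKM in wild-type and 6.36 and 5.31 FPKM in knockout libraries. The groups did not overlap, and the knockout libraries differed more from each other than the wild-type libraries did. FOSL2 fell by 0.75 on the log2 scale (SE 0.0853), a 1.68-fold decrease, lower in 2 of 2 knockout libraries (edgeR adjusted p = 1.14e-05).

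FOS itself (ENSG00000170345, chromosome 14, 75278774 to 75282230, plus strand), the founding member of the family and the classic serum-induced gene, was higher in the knockout. Its level was 19.8 and 17.7 FPKM in wild-type and 25.1 and 26.5 FPKM in knockout libraries, on counts of 1680, 1557, 2267 and 2096. The groups did not overlap, with a gap smaller than that of EGR1. FOS rose by a log2 fold change of 0.47 (SE 0.0742), or 1.38-fold, higher in 2 of 2 knockout libraries (edgeR adjusted p = 0.000184). A change of larger size was found for 27.6% of all tested genes. FOSB (ENSG00000125740, chromosome 19, 45467995 to 45475179, plus strand) was at 2.62 and 2.74 FPKM in wild-type and 2.43 and 3.10 FPKM in knockout libraries. Here the knockout libraries lay on either side of the wild-type libraries. The FOSB log2 fold change was 0.04 with a 95% interval of -0.22 to 0.31 (edgeR adjusted p = 0.786).

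In the JUN family a single member passed the test. JUND (ENSG00000130522, chromosome 19, 18279760 to 18281622, minus strand), the steadily expressed JUN protein, was at 124 and 132 FPKM in wild-type and 225 and 241 FPKM in knockout libraries. The groups were far apart, on counts of 6042, 6715, 11668 and 10983. JUND rose by a log2 fold change of 0.87 (SE 0.0663), or 1.82-fold, higher in 2 of 2 knockout libraries (edgeR adjusted p = 4.07e-07). JUN (ENSG00000177606, chromosome 1, 58780788 to 58784327, minus strand), the main partner of FOS in the AP-1 dimer, was at 62.3 and 65.5 FPKM in wild-type and 63.0 and 58.9 FPKM in knockout libraries. The groups overlapped, and the JUN log2 fold change was -0.06 with a 95% interval of -0.20 to 0.07 (edgeR adjusted p = 0.414). JUN passed as lower only with values rescaled to TPM, at a log2 fold change of -0.23 (limma on log2(TPM + 1), adjusted p = 0.047), a scale that moves the median over all tested genes by -0.16 and on which 25.5% of called genes were higher against 49.9% here. JUNB (ENSG00000171223, chromosome 19, 12791496 to 12793315, plus strand), which can restrain JUN activity, was at 32.9 and 31.9 FPKM in wild-type and 36.1 and 30.1 FPKM in knockout libraries. Its groups overlapped too, with a log2 fold change of 0.04 and a 95% interval of -0.15 to 0.22 (edgeR adjusted p = 0.747). JUNB shares 259 exonic bases (14.2%) with HOOK2 on the opposite strand, which had 482 to 702 counts, and reads of that stretch cannot be assigned without knowing how strand was treated.

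**Figure D2:**
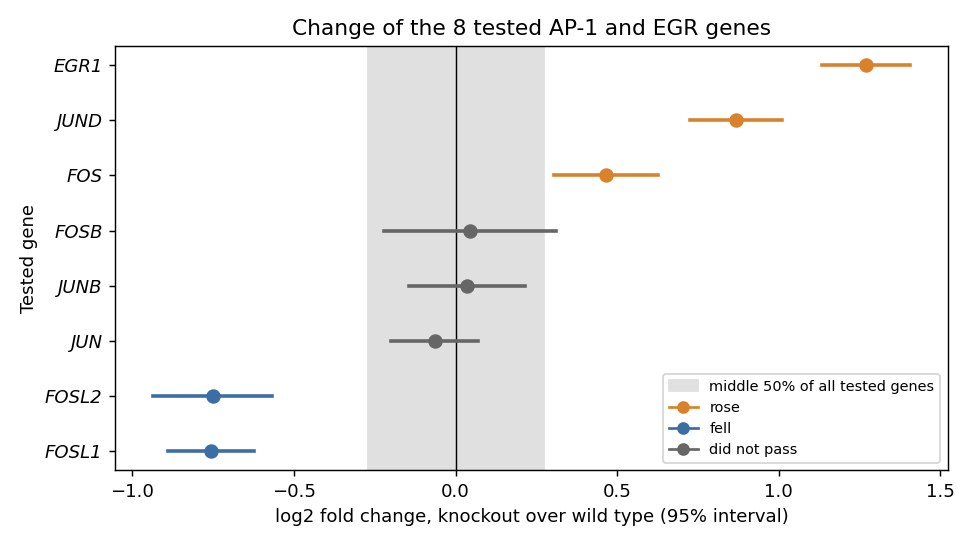
Log2 fold changes of the 8 tested genes, knockout over wild type, with 95% intervals from the edgeR fit, and a grey band for the middle 50% of all tested genes. EGR1, JUND and FOS lie to the right of the band, FOSL1 and FOSL2 to the left, and the intervals of JUN, JUNB and FOSB span 0.

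The make-up of both AP-1 families differed between the groups. Summed FOS family FPKM was 262 and 252 in wild-type replicates 1 and 2 and 166 and 169 in knockout replicates 1 and 2. Summed JUN family FPKM was 219 and 229.7 in wild-type and 324 and 330.4 in knockout libraries. The FOS sum was thus lower and the JUN sum higher in both knockout libraries, and the JUN sum divided by the FOS sum was 0.837 and 0.911 in wild-type and 1.95 and 1.95 in knockout libraries. FOSL1 made up 87.8% and 87.9% of the FOS family sum in wild-type and 79.6% and 79.4% in knockout libraries, while FOS made up 7.57% and 7.0% in wild-type and 15.1% and 15.6% in knockout libraries. JUND made up 56.5% and 57.6% of the JUN family sum in wild-type and 69.4% and 73.1% in knockout libraries. None of these shares overlapped between the groups. The FOSL2 share of the FOS family sum did overlap, at 3.63% and 4.05% in wild-type and 3.84% and 3.13% in knockout libraries. The shares of JUN, JUNB and FOSB, whose levels did not pass, were apart too, since a share also depends on the other members. JUN made up 28.4% and 28.5% of the JUN family sum in wild-type and 19.5% and 17.8% in knockout libraries. For comparison, the FPKM values of 75.5% of all tested genes were fully apart, which is a figure for levels and not for shares. The shares are given without a test, since the smallest p of an exact permutation test with 2 libraries in each group is 0.333.

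**Figure D3:**
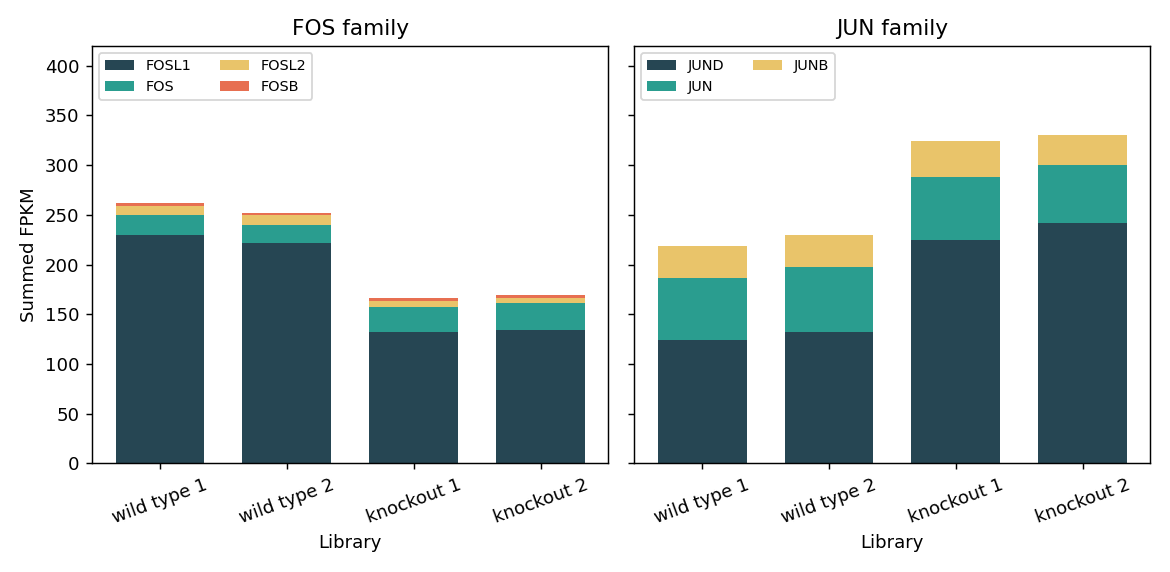
Summed FPKM of the FOS family and of the JUN family in each library, stacked by gene. The FOS bars fall from 252 to 262 in wild type to 166 to 169 in the knockout with a smaller FOSL1 block, and the JUN bars rise from 219 to 229.7 to 324 to 330.4 with a larger JUND block.

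Ratios within a library do not depend on its size. JUND over JUN was 1.99 and 2.02 in wild-type and 3.57 and 4.10 in knockout libraries. JUND over FOSL1 was 0.539 and 0.597 in wild-type and 1.70 and 1.79 in knockout libraries, so that the more abundant of the pair changed from FOSL1 to JUND. FOSL1 over FOSL2 was 22.9 ± 1.79 (SD, n = 2) in wild-type and 23.0 ± 3.25 (SD, n = 2) in knockout libraries, a difference smaller than the spread between replicates. EGR1 over FOS was 1.18 and 1.36 in wild-type and 2.20 and 2.21 in knockout libraries.

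The table assigns 48 genes to the bZIP transcription factor family, which holds all FOS and JUN genes, and 38 of them were tested. Apart from the 7 FOS and JUN genes, 31 were tested, of which 7 rose, 12 fell and 12 did not pass, 61.3% called against 50.3% of all tested genes. By the size of the change JUND, FOSL1 and FOSL2 took ranks 4, 5 and 6 of the 38. The 3 bZIP genes with larger changes, named after their values were seen, were CREB3L1, a membrane-bound activator of secretory genes, at 1.53 ± 0.101 (log2 fold change ± SE), NFIL3, a repressor, at -0.94 ± 0.0808, and the circadian factor DBP at 0.89 ± 0.0822. By level FOSL1 took rank 1 and JUND rank 3 of the 38 in wild type, and JUND took rank 1 and FOSL1 rank 3 in the knockout, with the stress factor ATF4 between them in both.

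**Figure D4:**
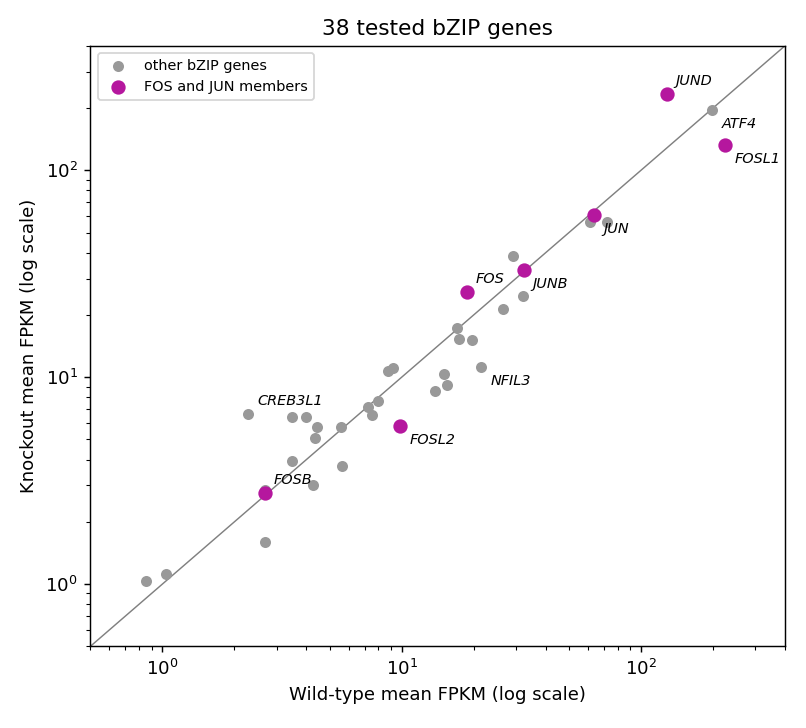
Mean FPKM of the 38 tested bZIP genes in wild type and knockout, both axes on a log scale, with the diagonal marking equal levels. JUND lies above the diagonal and FOSL1 and FOSL2 below it, while JUN, JUNB and FOSB lie on or next to it.

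Among leucine zipper partners that join or compete with FOS and JUN, more fell than rose. Of 9 tested partners of 12 listed, 2 rose, 5 fell and 2 did not pass, 77.8% called against 50.3% of all tested genes (25.1% higher and 25.2% lower), and their log2 fold changes had a median of -0.37. The 3 small MAF genes listed, whose proteins lack an activation domain, fell. MAFK was at 15.9 and 15.1 FPKM in wild-type and 9.74 and 8.69 FPKM in knockout libraries (-0.75 ± 0.0764, log2 fold change ± SE), MAFF was at -0.60 ± 0.0841 and MAFG at -0.37 ± 0.0689. ATF3, a stress-induced partner of JUN, was at 13.96 and 13.7 FPKM in wild-type and 8.61 and 8.62 FPKM in knockout libraries, a fall of 1.60-fold (edgeR adjusted p = 7.70e-06). The number of partners that rose was 0 without wild-type replicate 2, 0 on the TPM scale and 1 with the median of neighbouring genes removed.

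The EGR corepressors did not all move alike. NAB1, which binds EGR proteins and represses them, was at 9.61 and 9.09 FPKM in wild-type and 12.3 and 13.2 FPKM in knockout libraries, a rise of 1.37-fold (edgeR adjusted p = 0.000234). NAB1 did not keep its call as higher when the median change of neighbouring genes was removed, where 0 of the 3 tested genes of this list rose and 2 fell. Under total-count scaling and on the TPM scale 1 fell, against 0 here. NAB2, itself a known EGR1 target, was at 12.9 and 12.9 FPKM in wild-type and 14.7 and 13.0 FPKM in knockout libraries and did not pass (edgeR adjusted p = 0.305). WT1, a zinc finger factor with an EGR-like site, was at a log2 fold change of -0.32 ± 0.146 and did not pass (edgeR adjusted p = 0.0838).

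Most other immediate early genes did not follow EGR1 and FOS. Of 29 tested genes of 32 listed, 5 rose, 13 fell and 11 did not pass, 62.1% called against 50.3% of all tested genes (25.1% higher and 25.2% lower), and their log2 fold changes had a median of -0.295. The number that rose was 3 without wild-type replicate 1 and 1 on the TPM scale. KLF2, a Kruppel-like factor, was at 49.8 and 52.1 FPKM in wild-type and 90.6 and 104.5 FPKM in knockout libraries, a rise of 1.92-fold (edgeR adjusted p = 5.43e-07). HES1, a repressor induced by Notch and serum, was at 5.96 and 6.23 FPKM in wild-type and 2.42 and 2.36 FPKM in knockout libraries, a fall of 2.54-fold (edgeR adjusted p = 2.87e-06). The kinase gene SGK1 fell 1.98-fold and MYC fell 2.39-fold. Some genes usually induced together with FOS, named after their values were seen, did not move as one. IER2 rose (0.33 ± 0.0716), the ERK and JNK phosphatase gene DUSP1 fell (-0.21 ± 0.0801), and the nuclear receptor gene NR4A1 (0.21 ± 0.101) and the mRNA decay factor gene ZFP36 (0.07 ± 0.0740) did not pass.

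Transcription factors that act on the promoters of FOS and EGR1 were measured as a further list. Of 11 tested factors of serum response, ternary complex and CREB type, 1 rose, 5 fell and 5 did not pass, 54.5% called and so near the 50.3% of all tested genes, with a median log2 fold change of -0.18. SRF, the serum response factor that binds the CArG box, was at 34.9 and 36.0 FPKM in wild-type and 26.2 and 23.95 FPKM in knockout libraries, a fall of 1.41-fold (edgeR adjusted p = 3.43e-05). The SRF transcript fell while its target genes EGR1 and FOS rose. SRF activity was not measured, and a link between these changes was not tested. ETS1, a target of RAS and ERK signalling, was at 29.7 and 30.9 FPKM in wild-type and 18.3 and 18.3 FPKM in knockout libraries, a fall of 1.66-fold (edgeR adjusted p = 7.65e-07). CREM fell (-0.50 ± 0.0899), and MRTFB, a coactivator of SRF, rose (0.43 ± 0.0938). The number that rose was 2 without knockout replicate 1, 3 with the median of neighbouring genes removed and 0 in limma at either pseudocount, on the TPM scale and with a filter of 5 FPKM. With that filter 3 fell.

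Transcripts of the kinases that act upstream made up a pair of lists. Of 17 tested RAS, RAF and ERK pathway genes, 3 rose, 3 fell and 11 did not pass, 35.3% called against 50.3% of all tested genes, with a median log2 fold change of 0.02. RPS6KA4, which encodes the kinase MSK2 that phosphorylates histones and CREB at immediate early genes, fell 1.37-fold. HRAS (-0.45 ± 0.0908) and NRAS (-0.29 ± 0.0688) fell, and MAPK3, which encodes ERK1, rose (0.28 ± 0.0722). The number of these genes that rose was 0 without wild-type replicate 1, 1 without wild-type replicate 2, 1 under total-count scaling, 0 on the TPM scale, 5 with the median of neighbouring genes removed and 5 with edgeR's own filter. The number that fell was 6 under total-count scaling and 7 on the TPM scale. Of 15 tested JNK and p38 pathway genes, 4 rose, 3 fell and 8 did not pass, 46.7% called and so near the 50.3% of all tested genes, with a median log2 fold change of 0.115. MAPK14, which encodes p38 alpha, was at 9.33 and 9.34 FPKM in wild-type and 13.3 and 12.9 FPKM in knockout libraries, a rise of 1.40-fold (edgeR adjusted p = 3.08e-05). The scaffold gene MAPK8IP3 rose (0.50 ± 0.0700) and the scaffold gene MAPK8IP1 fell (-0.39 ± 0.101). The number of JNK and p38 pathway genes that fell was 0 without wild-type replicate 2, 5 without knockout replicate 1, 5 with the replicate number as a block, 5 under total-count scaling and 6 on the TPM scale, where 2 rose. Phosphorylation of these kinases, which sets their activity, is not seen in transcript levels.

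Of 9 tested genes that act on the decay of AU-rich mRNAs or on JUN protein turnover, 0 rose, 4 fell and 5 did not pass. The share called was 44.4% and so near the 50.3% of all tested genes (25.1% higher and 25.2% lower). ZFP36L2 (-0.37 ± 0.0768) and KHSRP (-0.29 ± 0.0635), both of which promote mRNA decay, and the ubiquitin ligase genes COP1 (-0.27 ± 0.0844) and ITCH (-0.17 ± 0.0681), whose proteins act on JUN, fell. The number that fell was 2 without wild-type replicate 2 and 2 in DESeq2. The count of 0 rises was the same in DESeq2 and under the other alternatives run, and 0 genes had a positive log2 fold change with an unadjusted p under 0.05 in edgeR's test.

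Genes known as AP-1 targets went both ways. Of 12 tested targets of 20 listed, 4 rose, 5 fell and 3 did not pass, 75% called against 50.3% of all tested genes (25.1% higher and 25.2% lower), with a median log2 fold change of -0.08. MMP1, the interstitial collagenase with a classic AP-1 site, was at 3.49 and 3.71 FPKM in wild-type and 0.565 and 0.748 FPKM in knockout libraries, a fall of 5.49-fold (edgeR adjusted p = 8.33e-07). PLAU, the urokinase gene, was at 126 and 125 FPKM in wild-type and 186 and 175 FPKM in knockout libraries, a rise of 1.44-fold (edgeR adjusted p = 1.92e-05). PLAUR, its receptor gene, rose 1.33-fold.

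Genes known as EGR1 targets went both ways too. Of 11 tested targets of 12 listed, 4 rose, 3 fell and 4 did not pass, 63.6% called against 50.3% of all tested genes, with a median log2 fold change of 0.05. With a filter of 5 FPKM 2 rose. HPSE, the heparanase gene, was at 1.17 and 1.23 FPKM in wild-type and 2.37 and 2.50 FPKM in knockout libraries, a rise of 2.03-fold (edgeR adjusted p = 3.06e-05). PDGFB, a growth factor gene, was at 3.94 and 4.05 FPKM in wild-type and 6.50 and 6.47 FPKM in knockout libraries, a rise of 1.63-fold (edgeR adjusted p = 3.61e-05). FN1, the fibronectin gene, fell 2.54-fold and THBS1, the thrombospondin gene, fell 7.29-fold.

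**Figure D5:**
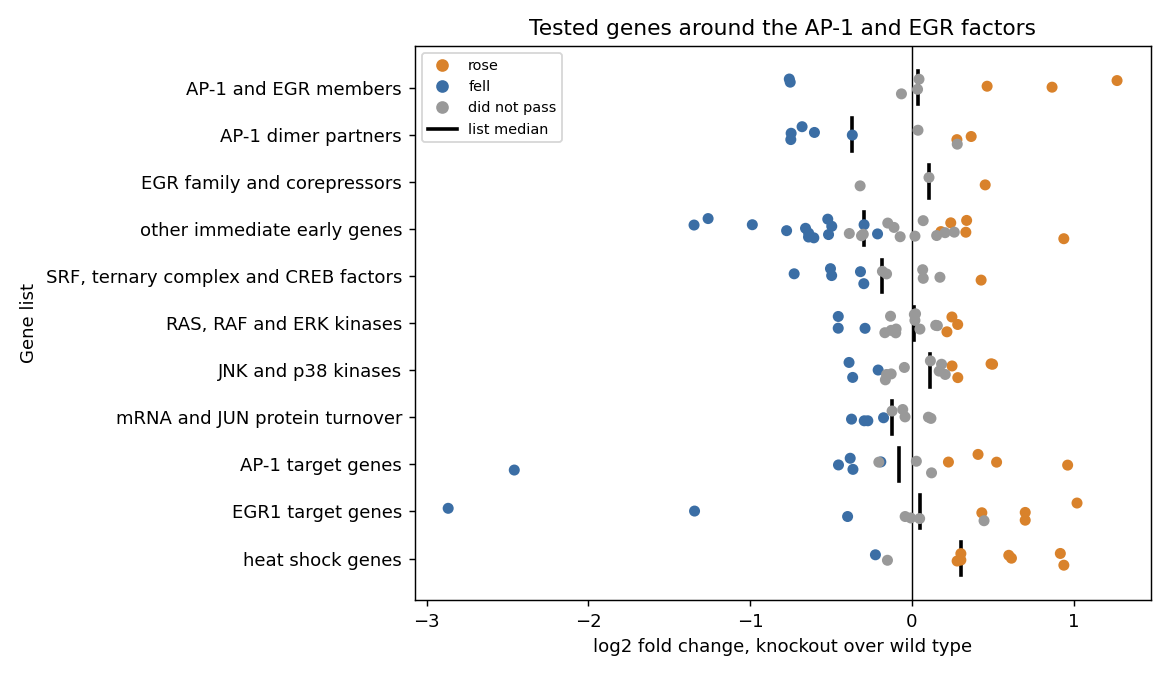
Log2 fold changes, knockout over wild type, of the tested genes of each list, 1 point per gene, with a bar at the list median. The other immediate early genes and the AP-1 dimer partners have more blue points that fell (13 and 5) than orange points that rose (5 and 2), and the target lists hold both.

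Most of the heat shock genes tested were higher in the knockout. Of 9 tested, 7 rose, 1 fell and 1 did not pass, 88.9% called against 50.3% of all tested genes (25.1% higher and 25.2% lower), with a median log2 fold change of 0.30, and the summed FPKM of the 10 listed genes was 1060 and 1050 in wild-type and 1410 and 1350 in knockout libraries. BAG3 was at 23.1 and 23.1 FPKM in wild-type and 44.8 and 43.7 FPKM in knockout libraries (1.92-fold higher), and HSPB1 rose 1.89-fold, HSPA8 1.53-fold and HSPA1B 1.52-fold. HSPA1A and HSPA1B are near-identical copies whose reads can be shared. The gene that fell, HSF1, which encodes the main heat shock factor and is named after its value was seen, did not pass without wild-type replicate 1 or without wild-type replicate 2. On the TPM scale 4 of the list rose and 2 fell, and 2 also fell in DESeq2, with no filter and under total-count scaling. The part of this difference in the EGR1 and FOS values was not tested.

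By likeness of log2 CPM profiles over the 4 libraries, each centred on its mean, the protein-coding genes nearest to EGR1 were TM4SF18, SCD and TANC1, at Euclidean distances of 0.0501, 0.0576 and 0.0775. Those nearest to JUND were CHST15, MOXD1 and ATP1B1, at 0.0258, 0.0295 and 0.0338. With 4 libraries in 2 groups, such a profile holds little beyond the fold change.

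In the authors' deposited table the log2 fold changes were 1.25 for EGR1, 0.85 for JUND, 0.45 for FOS, -0.77 for FOSL1 and -0.77 for FOSL2. The authors' deposited table gives adjusted p-values of 2.52e-54 for EGR1 and 1.76e-05 for FOS. In the authors' deposited table JUN (-0.08), JUNB (0.02) and FOSB (0.03) have adjusted p-values from 0.467 to 0.924.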

How the data were processed

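The deposited table holds raw counts per gene and library and FPKM values, per the file headers, and the authors' FPKM equal count per gene length over a single size per library. The submitters' processing notes name HISAT2 2.0.5 and the build hg38. The sources used here do not name the counter, its strand setting or the annotation. The authors' deposited log2 fold change and p-value columns were only quoted, and their mean signal columns, deposited per the file headers, were not used. Symbols turned into dates (27) were restored from a gene name table. Gene coordinates are those of the table, of which 99.98% match GENCODE release 29. Promoter coordinates are those of RefSeq.

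The 13079 genes that reached 1 FPKM in 2 or more libraries were tested with edgeR 4.0.16 (R 4.3.3; TMM factors 0.978 to 1.02; quasi-likelihood, two-sided) and adjusted over all of them. Standard errors and intervals come from the same fit. Alternatives used limma 3.58.1 on log2(FPKM + 1), log2(FPKM + 0.1) and log2(TPM + 1), DESeq2 1.42.0, other scalings and filters, removal of the median change of 25 neighbouring genes on each side, and each library left out. The scripts were tested on simulated data. Same-group libraries differed by more than sampling noise (chi-square per degree of freedom 4.05 and 8.56). From each list the 4 genes with the smallest p are named, except a gene that is not reported here. The members, lists and rules were chosen with earlier results of these data known.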

Additional observations from a re-analysis of the deposited data

How the results depend on the processing

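Of the 8 tested genes, EGR1, JUND, FOS, FOSL1 and FOSL2 kept their direction and stayed past the threshold under all 18 alternatives, and JUN passed under 1 of them (limma on log2(TPM + 1), -0.23, adjusted p = 0.047). The log2 fold change ranged from 1.09 to 1.31 for EGR1, 0.698 to 0.923 for JUND, 0.296 to 0.655 for FOS, -0.922 to -0.666 for FOSL1 and -0.887 to -0.525 for FOSL2. The ends 0.655 for FOS and -0.525 for FOSL2 came with the median of neighbouring genes removed, which was -0.19 around FOS and -0.23 around FOSL2. JUNB and FOSB did not pass under any alternative that tested them, and their sign changed between settings. The number of all genes called was 4346 with a filter of at least 5 FPKM, where fewer genes were tested, against 6581 here, and 7972 with no filter. With the replicate number as a block 7108 genes were called, and the block gave 3 of the AP-1 and EGR genes higher and 2 lower, as here. The labels do not say whether the numbers pair the libraries. The differences between replicates 1 and 2 in the 2 groups had a correlation across genes of -0.0014. That value shows no shared shift across genes as a whole, but it cannot settle a pairing that affects few genes. Without mitochondrially encoded genes EGR1 was at 1.27. Of 360 list counts under alternatives, 40 moved by over 1.5 times. For JUN, JUNB and FOSB, changes within their 95% intervals remain possible.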
